A study of Arabidopsis thaliana with 10 samples.

Results

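The genes described here were those whose transcript level dipped at 10 and 12 h after Arabidopsis thaliana MM2d cells were released from a block of DNA replication, the times at which transcripts of mitotic genes were highest. They were found as probe sets, the groups of probes on an ATH1 array that together measure 1 transcript or, for some probe sets, several. A probe set was a member if its highest signal was 60 or more and if its mean log2 level at 10 and 12 h lay at least 0.7 below both its mean at 4 and 6 h and its mean at 16 and 19 h. Signals under 12 were set to 12 before log2 was taken. Of 22746 probe sets, 11321 reached a signal of 60, and 40 of these were members, or 0.353%. Members were thus chosen by their measured levels at these 6 times, which are given below as a description and without a test.

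MM2d is a fast-dividing suspension line, kept here in continuous darkness at 27 °C. Cells in early stationary phase, 7 days after subculture, were put into fresh medium with aphidicolin at 4.16 µg/ml for 24 h and then washed free of the drug. All samples therefore share the same block, wash, sucrose, auxin and cytokinin, and differ in time after release: 0, 2, 4, 6, 8, 10, 12, 14, 16 and 19 h, with 1 array each. No time had a replicate and there was no culture without the block, and the labels describe 1 course of 1 culture, and the p-values below reflect nothing but how far neighbouring times of that course differed.

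Aphidicolin stops replicative DNA polymerases, so that blocked cells gather around the start of S phase and, once released, replicate their DNA, pass through G2 and divide. In plant cells, genes of DNA replication are expressed around the start of S phase under E2F factors, and genes of spindle and cell plate are expressed in G2 and mitosis under MYB3R factors. A transcript that is high on both sides of mitosis and low during it runs opposite to the mitotic genes. In a bulk culture, fewer cells expressing a gene and less RNA per cell cannot be told apart.

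The times of mitosis were checked on the same arrays with a list of 34 G2 and mitosis genes, for which the annotation used named 11 probe sets. All 11 were higher at 10 and 12 h than at 4 and 6 h and than at 16 and 19 h. AUR1, an Aurora kinase of the spindle and cell plate, rose from a signal of 75.7 at 4 h to 551 and 529 at 10 and 12 h and had fallen to 202 by 19 h. UBC20, a ubiquitin-conjugating enzyme, went from 109 to 1131 and 1199.7 and down to 412 at the same times. Both were thus still above their 4 h signals at 19 h. AUR1 was still at 387 at 14 h, so 14 h lay on the way down. With the sign of the rule turned, 152 probe sets had a peak at 10 and 12 h, against the 40 with a trough.

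Of the markers fixed for other cell types, 2 of 7 for leaf mesophyll (RCA and LHCB4.1), 1 of 3 for root hairs (EXP7) and none of the markers for xylem vessels or seed were named in the platform annotation used, so no cell type could be judged from its absence. RCA lay between 105 and 297, LHCB4.1 between 49.3 and 130 and EXP7 between 5.68 and 34.7, and their part in the results was not tested. The 2% trimmed mean of the arrays lay between 99.3 and 99.4. The 2 h array correlated least with the rest, at a mean of 0.822, followed by 0 h at 0.890, while the other 8 had means of 0.912 to 0.938. The trough rule used neither of them other than for the highest signal. With the highest signal taken from 4 h on, a setting chosen after seeing the data, 31 of the 40 remained.

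Among the 40 members, 18 had 1 gene in the platform annotation, and 22 had no gene listed there. Only 3 of the 18 carried a symbol: RECQI1, SNF7.2 and CCT2. The other 15 had a locus code, and the members without a gene are called here by their probe set. The annotation listed no gene for 55.0% of the members and for 43.1% of all probe sets that reached 60. The 17 genes that could be placed in the gene table lay on all 5 chromosomes, and the 2 closest were 179 positions apart in gene order, so none were neighbours.

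The troughs were shallow for most members. The drop from 4 and 6 h to 10 and 12 h ranged from 1.63-fold to 6.18-fold with a median of 1.98-fold, and the rise to 16 and 19 h from 1.63-fold to 3.25-fold with a median of 2.00-fold. The level at 10 and 12 h was under 25 for 18 members and under 100 for 35, with a median of 27.1. In 9 members at least 1 of the 2 trough arrays was under 12, and in 5 of these both were, so that their drops are lower bounds. Levels after the trough were above those before it in 19 members and below in 21, with a median difference of -0.09 log2 units. For 3 members the late level stayed at least 1 log2 unit below the early one.

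**Figure D1:**
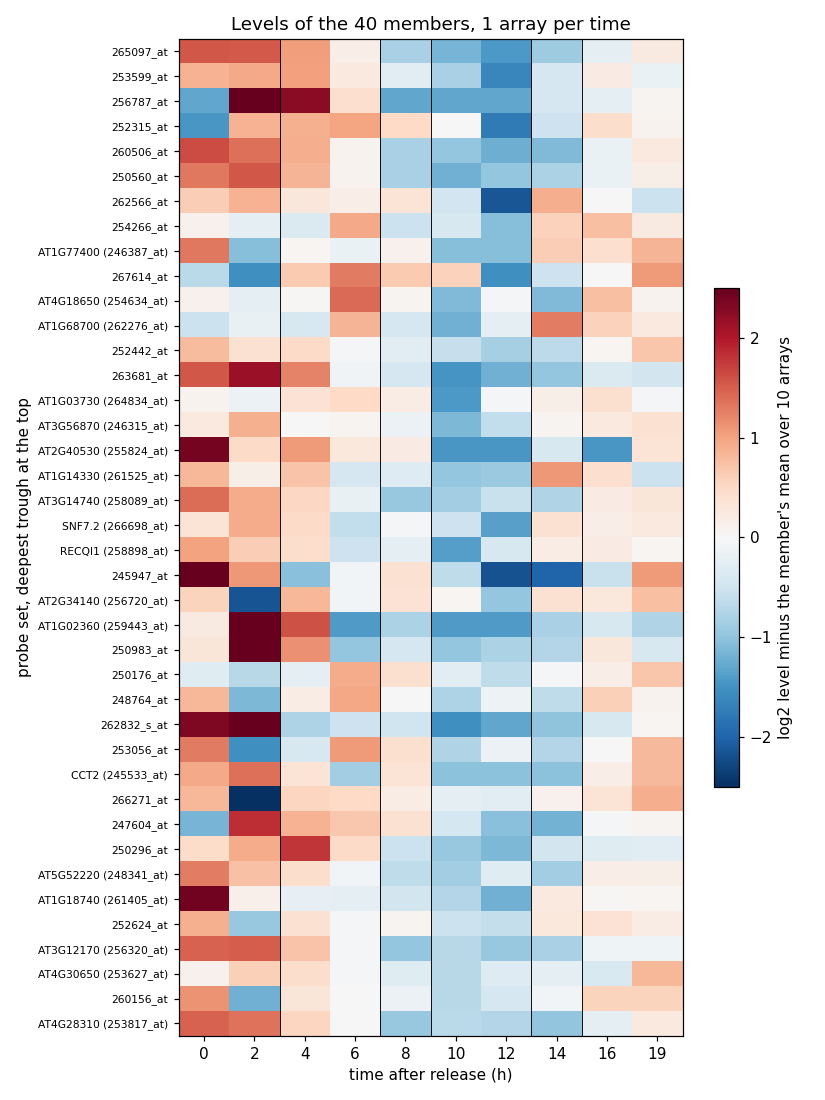
Each row is a member and each column an array, from 0 to 19 h after release, and the colour is the log2 level minus the member's mean over the 10 arrays. Rows run from the deepest trough to the shallowest, lines separate the pairs of times used by the rule from the other times, and the 10 and 12 h columns are mostly blue because the rule chose them so.

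Outside the times that chose them, the members were not alike. Their highest signal was at 0 h in 14, at 2 h in 11, at 4 h in 3, at 6 h in 7, at 14 h in 3 and at 19 h in 2. Of the 25 that were highest at 0 or 2 h, 9 reached a signal of 60 at no other time, so that the minimum itself fixed their place. Among the 31 members that reached 60 on the 6 arrays of the rule, 16 were highest at 0 or 2 h, against 30.1% of all probe sets that did so. The lowest signal of the whole course was at 10 or 12 h in 25 members and at 2 h in 8. At 2 h, 6 members stood at least 1 log2 unit above the mean of 0 and 4 h and 9 at least 1 unit below it, while the shares over all probe sets were 5.68% and 5.22%. Both counts include members that the minimum of 60 admitted through 0 or 2 h alone, so they are a description and no test. Over the 780 pairs of members, the correlation across the 10 arrays had a median of 0.39, and 141 pairs were below 0. These points share the arrays and the choice of members, so the correlation is only a description.

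How far each member rested on single arrays was read from its own values. In 28 of 40 members both trough arrays were below all 4 arrays at 4, 6, 16 and 19 h. Over all probe sets that reached 60, 7.01% had that order, which is given for scale since the rule chose the members for it. The trough was deeper than the largest difference between 2 neighbouring arrays of the rule in 17 members, and not in the others. When each of the 6 arrays of the rule was left out in turn, 7 members met the rule every time: 265097_at, 253599_at, 256787_at, 260506_at, 250560_at, 263681_at and AT1G77400. The minimum of 60 was still taken over all 10 arrays, and AT1G77400 met it only at 0 h. Another 12 met it in 5 of 6 cases, 15 in 4 and 6 in 3. Without the 12 h array 83 probe sets met the rule, 26 of them among the 40, and without the 10 h array 75 did, 29 of them among the 40.

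At the edge of the rule, AT4G28310, 260156_at and AT4G30650 lay just inside, with the smaller of their 2 changes at 0.70, 0.71 and 0.71 log2 units. Just outside lay 246137_at, AT1G52530 and 256404_at with 0.70 (under 0.7 before rounding), 0.69 and 0.68. The values lie close together on both sides of the edge.

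All members were compared on the 4 arrays outside the rule, and several of them began high at 0 and 2 h. The level at 8 and 14 h, the times that flank the trough, was compared with that at 0 and 2 h in 1 limma fit over all 11321 probe sets. In this fit neighbouring times shared a mean, so that the spread came also from the arrays of the rule, and Benjamini-Hochberg adjustment was made over all probe sets. Of the 40 members 9 were lower at 8 and 14 h and 0 were higher, where 1.65% of all probe sets were lower and 2.97% higher, 4.62% in all. The 40 include the 9 members admitted by 0 or 2 h alone, of which 1 was called (262832_s_at), and the comparison with 0 and 2 h is no test of those. With the minimum of 60 taken over the 6 arrays of the rule, an alternative chosen after seeing the data, 8 of 31 members were lower and 0 higher, where 1.59% of 10725 probe sets were lower and 3.15% higher. At an unadjusted p under 0.05 there were 14 of the 40 members (35%), all lower, against 25.1% of all probe sets in either direction. With the minimum over the 6 arrays of the rule there were 12 of 31, against 24.9%, both counted in either direction. The 2, 8 and 14 h arrays of this comparison lie next to those of the rule in time. A smooth course that meets the rule thus also tends to be low at 8 and 14 h and high at 2 h, so both sides are tied to the choice of members.

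Probe set 260506_at, with no gene listed, had signals of 537, 447, 327, 185, 98.7, 88.9, 74.4, 80.2, 155 and 205 from 0 to 19 h. It fell at each sampling from 0 h to 12 h and had regained part of the early level by 19 h. Its level at 8 and 14 h was 5.51-fold below that at 0 and 2 h, a log2 difference of -2.46 (SE 0.29, limma adjusted p = 0.0102). For 250560_at, also without a gene, the signals were 433, 506, 312, 185, 98.6, 75.8, 88.4, 100.2, 156 and 192, with a log2 difference of -2.24 (SE 0.26, limma adjusted p = 0.0102). The values at 8 and 14 h were nearly equal, and both were far below those at 0 and 2 h. In 265097_at, the member with the deepest trough, signals went from 283 and 278 at 0 and 2 h through 198, 108, 54.8 and 43.2 to 35.8 at 12 h and returned through 52.1 and 82.0 to 112 at 19 h. Its log2 difference was -2.39 (SE 0.30, limma adjusted p = 0.0127). By 19 h it was still below its signals at 0, 2 and 4 h.

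AT3G12170 encodes a protein with the J domain of DnaJ co-chaperones. Its signals were 181, 186, 107, 63.4, 33.4, 40.5, 34.2, 37.2, 60.7 and 60.9, so that the level was already at the bottom at 8 h and stayed there to 14 h. The log2 difference was -2.38 (SE 0.27, limma adjusted p = 0.0102). AT4G28310 had 289, 264, 149, 103, 53.5, 65.1, 62.2, 52.4, 87.0 and 123. Its lowest signals were those at 8 and 14 h, just outside the times of the rule, and its log2 difference was -2.38 (SE 0.24, limma adjusted p = 0.00629). Both genes thus had a wide floor from 8 to 14 h rather than a dip at 10 and 12 h alone.

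AT3G14740 encodes a protein with a PHD-type zinc finger, a fold known for binding histone tails. Its signals were 291, 212, 159, 97.1, 57.2, 60.5, 75.6, 65.5, 128 and 136, lowest at 8 h, with a log2 difference of -2.02 (SE 0.27, limma adjusted p = 0.0154). AT5G52220 was weaker, with 126, 87.0, 70.5, 49.8, 33.8, 28.4, 42.1, 28.7, 58.2 and 57.4 and a log2 difference of -1.75 (SE 0.32, limma adjusted p = 0.0306). In both, every sample at 8 and 14 h was below every sample at 0 and 2 h. The call for AT5G52220 was lost without any 1 of the 8, 10, 12, 14, 16 or 19 h arrays (limma adjusted p 0.0616 to 0.0904) and without the filter (0.0851), and that for AT3G14740 without the filter (0.0503).

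Probe set 263681_at, with no gene listed, had 315, 478, 251, 101, 79.7, 38.4, 46.6, 54.4, 82.6 and 77.5. It was highest at 2 h and at 16 and 19 h had returned to well under its level at 4 h. Its log2 difference was -2.56 (SE 0.41, limma adjusted p = 0.0207), a call lost without the 2, 10, 12, 14, 16 or 19 h array (0.0514 to 0.0802) and without the filter (0.0911). The probe set 262832_s_at had another shape, with 178 and 439 at 0 and 2 h and 20.6, 24.7, 24.8, 12.1, 14.2, 17.6, 26.8 and 36.6 from 4 h on. It reached the minimum of 60 only through 0 and 2 h, so its log2 difference of -3.74 against those times is a description and no test. From 4 h on its signals stayed between 12.1 and 36.6, so that its trough lay close to the floor. An _s_at probe set can match several transcripts, and it was the only such member.

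**Figure D2:**
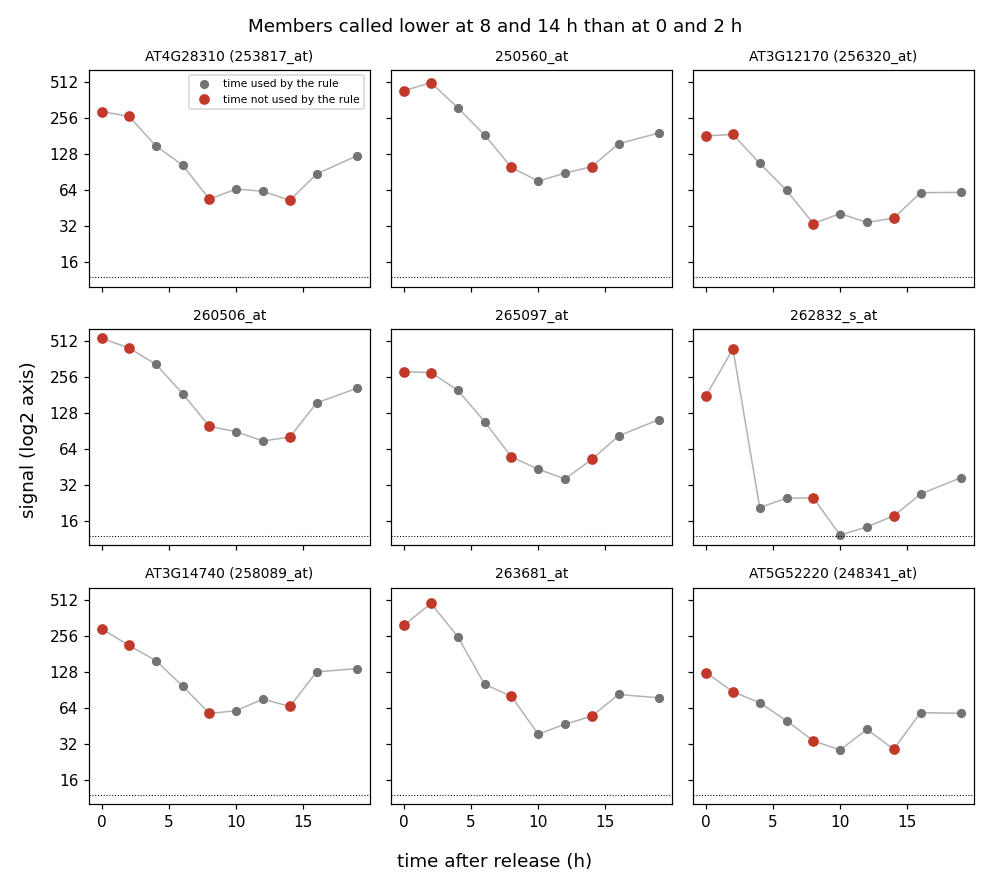
Each panel shows the signal (log2 axis) of 1 of the 9 members called lower at 8 and 14 h than at 0 and 2 h, against time after release in h, with 1 array per point. Red points are the 4 times outside the rule and grey points the 6 times that chose the members, the dotted line is the floor of 12, and in all 9 panels both red points at 8 and 14 h lie below both at 0 and 2 h. For 262832_s_at this is fixed in part by the minimum of 60, which it met only at 0 and 2 h.

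Across the 31 members that reached 60 on the arrays of the rule, the log2 difference between 8 and 14 h and 0 and 2 h had a median of -0.63, and it was below 0 in 22. Over the 10725 probe sets that did so the median was 0.11, and 39.9% were below 0. In 15 of the 31 both flanking arrays were below both early ones, against 18.0% of those probe sets. Over all 40 members the median was -0.78 and both flanking arrays were below both early ones in 20, against 19.3% of the 11321 probe sets. Over all probe sets 523 were called, 336 higher and 187 lower. With each array centred on its median the split was 125 higher and 151 lower, the median of all probe sets was -0.05 and that of the members -0.92, and 9 members were called lower. When the fit used the 0, 2, 8 and 14 h arrays alone, 0 probe sets and 0 members were called in limma, with 1512 and 15 at an unadjusted p under 0.05, and the 9 had adjusted p of 0.0826 to 0.226. Without the 0 h array the early side was the 2 h array alone, and members were then called in both directions, as were all probe sets. The median difference was -0.86 over the 40 members, with 13 above 0 and 27 below, and 0.14 over all probe sets. The 40 include members that reached 60 at 2 h alone, such as CCT2, so these values are a description and no test.

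**Figure D3:**
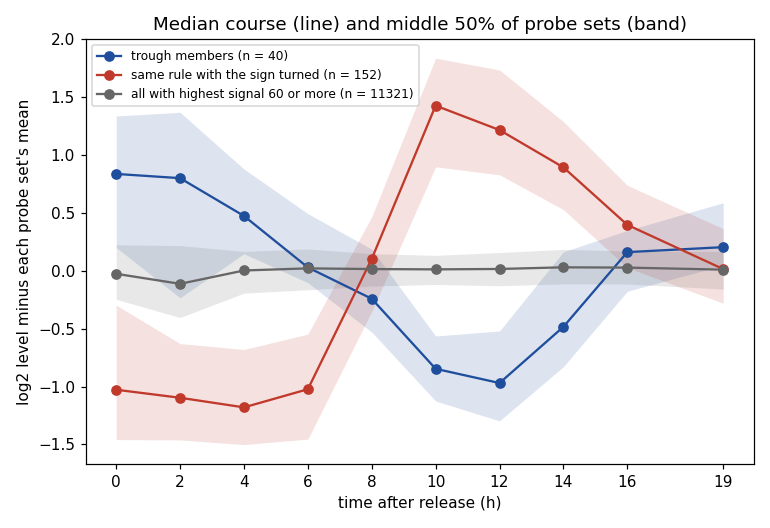
The lines are the median log2 level, minus each probe set's own mean over 10 arrays, at each time after release in h, and the bands hold the middle 50% of probe sets. The 40 trough members (blue) go from a median of 0.84 (0 h) through -0.24 (8 h) to -0.97 (12 h) and end at 0.20 (19 h). The 152 probe sets that met the rule with its sign turned (red) run the other way. The 11321 probe sets that reached 60 (grey) stay near 0. At the 6 times of the rule, blue and red are opposite because they were chosen so. The 0 h median of the members includes 9 that reached 60 only at 0 or 2 h.

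The 8 h and 14 h arrays also show how the trough was entered and left. At 8 h the level was below the mean of 4 and 6 h in 32 of 40 members, with a median difference of -0.46 log2 units, whereas 48.8% of all probe sets were below. At 14 h it was below the mean of 16 and 19 h in 32 members, with a median of -0.53, whereas 48.4% of all probe sets were below. Since the rule chose members with high levels at 4, 6, 16 and 19 h, no test was made of these differences. At 8 h 27 members lay between their early and trough levels, at 14 h 20 lay between their trough and late levels, and 16 did so at both times. At 14 h 28 members stood above their trough level and at 8 h 35 did.

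Whether the members stood at the same level on either side of the trough was asked by comparing 14 h with 8 h in the same fit. The log2 difference had a median of -0.03 over the members, from -2.39 to 1.70, with 18 above 0 and 22 below, and over all probe sets a median of 0.02. In limma 0 of 11321 probe sets were called (0%), with 586 at an unadjusted p under 0.05, and the members had 0 called and 1 at that level. That 1 was AT1G68700, higher at 14 h by 1.70 log2 units (SE 0.72, limma adjusted p = 0.953). With 1 array on each side, the 95% intervals of the members were 3.11 log2 units wide at the median, and for 2 members the interval lay within 1 unit of 0. A difference of 1 unit was thus not measurable for most members, and a p over 0.05 does not show that the levels were equal.

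**Figure D4:**
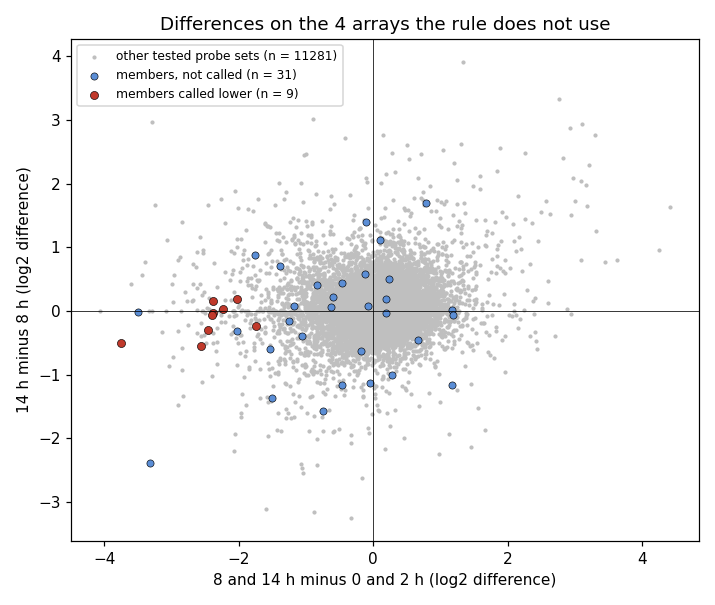
Each point is 1 of 11321 probe sets, placed by its log2 difference between 8 and 14 h and 0 and 2 h (horizontal) and between 14 h and 8 h (vertical), both from arrays outside the rule. Grey points are the other 11281 probe sets, blue the 31 members that were not called and red the 9 members called lower, which lie on the left.

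Of the 3 members with a symbol, RECQI1 is a helicase of the RecQ family, enzymes that unwind DNA during repair and recombination. Its signals were 83.3, 63.5, 56.2, 29.1, 35.5, 15.9, 31.3, 47.2, 47.8 and 42.8 from 0 to 19 h. The lowest was at 10 h, whereas the 12 h signal of 31.3 was above the 29.1 at 6 h, so its trough rested on the 10 h array. Its levels were 40.4 at 4 and 6 h, 22.3 at 10 and 12 h and 45.2 at 16 and 19 h. It reached 60 only at 0 and 2 h, so its log2 difference of -0.83 between 8 and 14 h and those times is a description.

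SNF7.2, also known as VPS32, is a subunit of ESCRT-III, the membrane-remodelling complex that sorts proteins into vesicles of endosomes. Its signals were 91.3, 137, 100.0, 46.9, 70.0, 50.4, 28.2, 94.6, 80.9 and 85.9. The 6 h signal was below that at 10 h, and the 12 h array was the lowest. Its log2 difference between 8 and 14 h and 0 and 2 h was -0.46 (SE 0.42, limma adjusted p = 0.523).

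CCT2 is an enzyme that makes CDP-choline, the activated choline used for phosphatidylcholine, a main lipid of membranes. It was a weak signal throughout, with 47.3, 63.4, 31.1, 13.5, 31.0, 10.2, 11.6, 5.79, 27.6 and 42.9. From 10 to 14 h it was under the floor, so its drop of 1.71-fold and its rise of 2.87-fold are at least that large. It reached 60 only at 2 h, and its log2 difference of -1.51 at 8 and 14 h against 0 and 2 h is likewise a description.

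The 11 other members with a locus code were AT1G77400, AT4G18650, AT1G68700, AT1G03730, AT3G56870, AT2G40530, AT1G14330, AT2G34140, AT1G02360, AT1G18740 and AT4G30650. AT1G77400 had 62.5, 11.4, 26.0, 22.4, 27.2, 6.54, 1.76, 38.5, 33.7 and 45.1, with both trough arrays under the floor and all others but 2 h above it. It was the gene with the largest rise out of the trough, at least 3.25-fold, and the only one with a named gene that met the rule whichever of its arrays was left out.

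AT3G56870 lay between 33.6 and 68.9 at every time other than 10 and 12 h, with 44.0, 68.9, 37.3, 39.0, 33.6, 17.2, 24.2, 39.0, 44.3 and 48.4. AT1G03730 had 74.3, 63.4, 89.6, 98.4, 79.5, 25.9, 68.2, 78.0, 92.9 and 67.7. There only the 10 h array was far below the rest, and the 12 h signal was above that at 19 h. Its trough thus rested on 1 array.

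AT1G14330, which encodes a protein with kelch repeats, had 179, 111, 165, 75.2, 80.8, 51.8, 52.8, 212, 134 and 69.3. Both trough arrays were nearly equal, and the highest signal followed at 14 h. AT1G68700 was also highest at 14 h, with 26.1, 33.2, 28.4, 67.9, 28.3, 16.4, 32.3, 91.8, 56.1 and 44.7. Its 12 h signal was above that at 4 h, so it dipped at 10 h alone.

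AT2G34140 encodes a transcription factor with a Dof zinc finger. It had 144, 21.9, 175, 93.9, 127, 101, 50.2, 128, 118 and 165, lowest at 2 h rather than in the trough. The 10 h signal was above that at 6 h, and the dip was at 12 h. AT1G02360 encodes a protein of the chitinase family, enzymes that cut the chitin of fungal walls. Its signals were 37.3, 1139.7, 95.8, 7.84, 18.3, 6.38, 4.89, 18.0, 24.2 and 18.9. The 2 h signal was the largest of any member but those of 266271_at, and from 6 h on every signal was under 25, so its trough lay near the floor.

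AT2G40530 had 171, 45.8, 68.1, 39.1, 37.5, 5.54, 5.23, 24.9, 3.28 and 41.4, with the lowest signal at 16 h, a time the rule takes as after the trough. AT1G18740 had 259, 53.4, 42.3, 40.9, 35.3, 29.2, 21.3, 57.5, 49.9 and 50.2. It was highest by far at 0 h, and from 2 h on moved between 21.3 and 57.5. AT4G18650, whose product is related to the seed dormancy protein DOG1, had 27.7, 21.9, 26.4, 68.5, 26.9, 10.0, 24.9, 8.37, 43.4 and 27.2, highest at 6 h and lowest at 14 h. AT4G30650 encodes a small membrane protein of the family induced by cold and salt and had 81.1, 113, 101, 73.2, 60.8, 46.4, 60, 63.4, 57.3 and 134. Its 16 h signal was below that at 12 h, so the late level rested on 19 h.

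The 17 remaining members had no gene listed and were not called. The strongest was 266271_at, with 1388, 102, 1134, 1102, 879.9, 663, 649.8, 843, 989 and 1455. Other than at 2 h it moved smoothly, falling from 4 h to 12 h and rising at each later time, and the 2 h array stood far below all others. Probe set 252442_at was also strong and smooth, with 579.6, 439, 467, 328, 279, 226, 188, 213, 347 and 540.1. Its log2 difference at 8 and 14 h against 0 and 2 h was -1.05 (SE 0.27, limma adjusted p = 0.0715). It ended the course near its level at 0 h.

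Probe set 250296_at had 369, 511, 929.5, 376, 187, 139, 125, 196, 219 and 224, highest at 4 h and back to less than its 6 h signal by 19 h. For 253599_at the signals were 109.9, 115, 122, 70.8, 49.9, 34.0, 19.3, 44.7, 69.3 and 53.4, with both flanks between the trough and the shoulders. The largest drop of all members, at least 6.18-fold, was that of 256787_at, with 11.9, 250.4, 140.2, 39.2, 7.42, 3.84, 3.59, 22.1, 24.7 and 31.0. It rose between 0 h and 2 h and was under the floor from 8 to 12 h. Its late level was 27.7 against 74.1 at 4 and 6 h.

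In several members a single trough array was low. Probe set 262566_at had 439.7, 518, 346, 318, 362, 204, 64.4, 538, 284 and 196, where the 19 h signal was below that at 10 h and the 12 h array alone was far down. In 252315_at the 12 h signal was 13.2 and that at 10 h 45.4, close to the 47.9 at 19 h. For 267614_at the 12 h signal was 6.03 and that at 10 h 51.5, above the 34.4 at 16 h. In 245947_at, which fell from 825 at 0 h to 26.4 at 4 h, the 12 h signal was 2.22 and that at 10 h 35.1, above the 26.4 at 4 h. These 4 dips were therefore at 12 h.

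The others were weaker or irregular. In 250176_at, with 143, 109, 151, 334, 232, 147, 114, 169.8, 197 and 287, the trough level of 129 was close to the signals from 0 to 4 h, so that the member looked like 2 peaks, at 6 h and 19 h. Probe sets 254266_at, 248764_at and 253056_at were likewise highest at 6 h among the times from 4 h on, with 91.9, 64.5 and 72.4 there and 36.2, 19.5 and 20.6 at 10 h. Their signals were 37.0, 37.6 and 26.4 at 4 h and 22.7, 30.4 and 31.5 at 12 h. In 254266_at 10 h was thus near 4 h, and in 253056_at 12 h was above 4 h. In 252624_at and 260156_at the 0 h signals were 120.2 and 71.4 and the 2 h signals 34.0 and 14.2, and from 4 h on they moved between 42.9 and 84.5 and between 20 and 47.9. Probe sets 247604_at and 250983_at were highest at 2 h, with 112 and 141, and at 12 h stood at 15 and 13.5.

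Lists of cell cycle genes were set beside the members. Of 47 genes of DNA replication and its E2F control, 4 had a probe set named in the annotation used, and 0 of these 4 were members. The median of the smaller of the 2 changes, counted as positive for a dip, was 0.19 log2 units for these 4 and -0.11 over all probe sets that reached 60. FBL17, which marks CDK inhibitors for breakdown, came nearest. Its signals were 480.0, 544, 472, 234, 239.9, 257, 226, 259, 355 and 370.0, a drop of 0.46 and a rise of 0.59 log2 units. It stepped down between 4 h and 6 h, before the trough, and its log2 difference at 8 and 14 h against 0 and 2 h was -1.03 (SE 0.29, limma adjusted p = 0.0873).

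ICU2, the catalytic subunit of DNA polymerase alpha, had a drop of 0.22 and a rise of 0.24, PRL, a subunit of the MCM helicase, 0.15 and 0.37, and UNG, a uracil-DNA glycosylase of base excision repair, was higher at 10 and 12 h than at 4 and 6 h by 1.08 log2 units. In limma 0 of these 4 were called at 8 and 14 h against 0 and 2 h, where 4.62% of all probe sets were. At an unadjusted p under 0.05 there was 1 of the 4, against 25.1% of all probe sets. The 11 G2 and mitosis probe sets were all higher at 10 and 12 h than on either side, so none could be a member. Of these 11, 6 were called higher at 8 and 14 h than at 0 and 2 h, where 2.97% of all probe sets were called higher. The median of the 11 was 1.82. The 6 include 3xHMG-box2, BUBR1 and KINESIN-12B, which reached 60 only from 8 h on or later, so the comparison is no test of those. AUR2 and 3xHMG-box1, which count in the median, likewise reached 60 only from 10 h on. SIM, an inhibitor of cyclin-dependent kinases, was the single gene of 19 G1 cyclins and CDK inhibitors with a named probe set, was no member and was not called. A search of gene symbols and synonyms with 24 lists of family keywords found 93 probe sets that reached 60, of which 0 were members. Since 22 members had no gene and 15 only a locus code, that search says little about their families. It missed RECQI1, whose synonym is spelled in capitals.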

How the data were processed

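Each deposited value is a linear intensity for 1 probe set, made with MAS5 per the submitters' processing notes; its version is not given in the sources used here. The deposited arrays share nearly the same trimmed mean, and no further scaling was applied. The table held 22810 probe sets, of which 64 control probe sets were left out. Gene names came from the platform annotation, updated through RefSeq's gene table (assembly TAIR10.1), used for names and gene order only. The annotation listed 1 gene for 13513 probe sets, several for 503 and none for 8730. The table of genes holds no product descriptions, so the roles given are background knowledge.

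With R 4.3.3 and limma 3.58.1, log2 levels of the 11321 probe sets with a highest signal of 60 or more were fitted over all 10 arrays. The pairs 0 and 2, 4 and 6, 10 and 12, and 16 and 19 h shared a mean each, 8 h and 14 h had their own, and eBayes used a mean trend. An adjusted p under 0.05 (Benjamini-Hochberg) was called. Precision is limited by 1 array per time. The script was tested on simulated data.

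The members, lists, tests and alternatives were chosen with earlier results of these data known. The naming rule took members with a symbol, in a list, called in a contrast or next to the edge of the rule, and the mitosis genes as reference. The other members were named after their values were seen, so that every member is accounted for. Sequences were not analysed here.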

Additional observations from a re-analysis of the deposited data

How the results depend on the processing

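The number of members, 40, moved by over 1.5 times with a floor of 25 (21), a drop of 0.5 (107) or of 1 log2 unit (10) and no minimum for the highest signal (84). It ranged from 34 to 83 when 1 array of the rule was left out, and was 60 without a floor, 50 after quantile normalization and 49 with arrays centred on the median. All 40 were kept in these last 3, and 28 had both trough arrays below all 4 others, which was an alternative chosen after seeing the data.

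For 8 and 14 h against 0 and 2 h, the 523 calls over all probe sets became 276 with arrays centred on the median, 285 without a mean trend, 0 with 4 arrays alone, and 71 to 2696 with 1 array left out. That count was 2696 when 0 h was left out, 339 and 338 for 4 and 6 h, 198 for 8 h, 78, 79 and 71 for 10, 12 and 14 h, and 131 for 16 as for 19 h. The members called lower were 0 with 4 arrays alone and 6 without the filter, where 0% and 0.44% of all probe sets were lower. With 1 array of the rule left out they were 7 to 10, where 0.256% to 1.21% of all probe sets were lower. Without the 0 h array members were called in both directions, as were probe sets over all. With the minimum of 60 over the 6 arrays of the rule 8 members were called lower, and the calls over all were 509. Of the 9 named members 8 kept their direction in all 21 alternatives and 262832_s_at in the 20 that tested it. Of the 9, 6 were called in all but 1 alternative, the fit of 4 arrays. These 6 include 262832_s_at, which met the minimum of 60 only at 0 and 2 h, so its direction and calls are no test. The fit of 4 arrays took its spread from the 0, 2, 8 and 14 h arrays alone, and why the calls were lost there was not tested. For 14 h against 8 h, the 0 calls became 5 with arrays centred on the median and 251 without the filter, with 0 members among them, and the cause was not tested.

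No paired analysis was possible because each time had 1 array with the same replicate number. Low signals limit the depth of a trough that can be measured: 18 members stood under 25 at 10 and 12 h.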
